A study of Mus musculus with 12 samples.

Results

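The mouse CDK inhibitors and the RB family are 10 genes, taken by name from the 53465 genes of the expression table. They are the Cip/Kip inhibitors Cdkn1a, Cdkn1b and Cdkn1c, the INK4 inhibitors Cdkn2a, Cdkn2b, Cdkn2c and Cdkn2d, and the pocket proteins Rb1, Rbl1 and Rbl2. They were measured by RNA-seq in LSKs (Lin- Sca-1+ c-Kit+ bone marrow cells, the fraction that holds hematopoietic stem cells and multipotent progenitors). The 12 libraries fall into 4 groups of 3: untreated wild type (Tespa1+/+), untreated Tespa1-/-, wild type taken 9 days after the drug 5-fluorouracil, called 5-FU here, and Tespa1-/- taken 9 days after it. 5-FU kills dividing cells, after which the surviving stem cells rebuild the marrow. The wild-type mice were littermates per the labels, and the mice of the study were 8 to 10 weeks old. The Tespa1 allele was a germ line knockout, carried by every cell type of the mutant and not by LSKs alone, in a line backcrossed to C57BL/6 for more than 6 generations. How many mice gave each library is not given in the sources used here, so that the p-values measure the spread between these libraries.

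The cell cycle inhibitors and the pocket proteins form one pathway. Cyclin-dependent kinases (CDKs), switched on by cyclins, put phosphate on the pocket proteins RB, p107 and p130, which then let go of the E2F factors, and genes for DNA replication are switched on. The INK4 proteins bind CDK4 and CDK6, whereas the Cip/Kip proteins bind several cyclin-CDK complexes. With the MuvB core, p107 and p130 build the DREAM complex, which holds mitotic genes silent in resting cells. In hematopoietic stem cells these brakes are known for keeping cells in quiescence, and p57, the product of Cdkn1c, is counted among the main ones.

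The libraries held 22118154 to 28275079 counts. Mitochondrial genes took 8.15 to 8.71% of the counts in Tespa1-/- LSKs after 5-FU and 9.42 to 10.2% in the other 9 libraries. Tespa1, the deleted gene, was still counted in the mutants, at 34.8 ± 0.225 CPM (counts scaled to a common library size with TMM factors, mean ± SD, n = 3) against 46.8 ± 3.95 in untreated wild type, and at 19.2 ± 1.76 against 53.1 ± 5.34 after 5-FU. The fitted difference in its level was -0.42 (log2, adjusted p = 0.0316) in untreated LSKs and -1.47 (adjusted p = 9.4e-05) after 5-FU. Which exons were deleted is not given in the sources used here, so that these counts do not check the label, and Tespa1-/- is used here as the labels give it. The labelled cell type was checked on 9 LSK and stem cell markers, which summed to 1585 to 1638 CPM in untreated wild type, 1315 to 1356 in untreated Tespa1-/-, 1292 to 1334 in wild type after 5-FU and 777 to 840 in Tespa1-/- after 5-FU, with none at 0. Flt3, Cd34 and Kit made up most of each sum. In wild type the sum was lower after 5-FU through Flt3 (means of 615 and 313 CPM) and Cd34 (400 and 267 CPM), while 7 of the 9 had log2 differences above 0. The Tespa1-/- libraries after 5-FU stood apart in markers of other cells. Their 11 neutrophil markers summed to 1112 to 1118 CPM against 19.6 to 44.3 in the other 9 libraries, and their 10 erythroid markers to 445 to 460 CPM against 22.5 to 70. Among the neutrophil markers, Cd177 was at 0 in each of the other 9 libraries, Ly6g in the untreated ones, Fcnb in wild type after 5-FU, and Ltf and Camp in untreated wild type. No erythroid marker was at 0 in a whole group. In bulk RNA such as this, fewer cells of a type and less RNA per cell cannot be told apart.

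8 of the 10 genes were measured above the filter on low counts, and Cdkn1a differed between the genotypes in both treatments. Per length, Cdkn1a was the highest of the 10 in untreated wild-type LSKs, at 48.3 ± 3.25 FPKM (the deposited unit, fragments per kilobase scaled to library size, n = 3), clear of Rbl1 at 19.5 ± 0.716. Next came Cdkn1b at 9.8 ± 3.97 and Rbl2 at 6.1 ± 0.245, whose libraries overlapped, then Rb1 at 4.91 ± 0.475, Cdkn2c at 4.51 ± 1.52 and Cdkn2d at 4.1 ± 1.8, which also overlapped. Cdkn1c, the p57 gene, was far lower, at 0.365 ± 0.0684 FPKM. In untreated Tespa1-/- LSKs the top of the order was Rbl1 at 20.2 ± 1.25 and Cdkn1a at 19.2 ± 0.488 FPKM, with overlapping libraries. In wild type after 5-FU it was again Cdkn1a (29.8 ± 1.84) above Rbl1 (21.2 ± 0.676), and in Tespa1-/- after 5-FU Rbl1 (21.1 ± 0.422) above Cdkn1a (16.1 ± 1.12) and Cdkn2c (9.58 ± 1.43). The length behind the deposited FPKM was longer than the gene's exons for several of these genes, 7580 bases for Cdkn1b against 4552 bases of exon in GENCODE M21, and 3378 against 1574 for Cdkn2d. With the exon lengths, Cdkn2d moved from the seventh to the fifth place in untreated wild type (8.81 ± 3.86 reads per kilobase of exon scaled to library size, n = 3), Rbl1 was clear of Cdkn1a in untreated Tespa1-/- (23.8 ± 1.47 and 16.6 ± 0.422), and the pair overlapped in wild type after 5-FU (25 ± 0.796 and 25.8 ± 1.59). In Tespa1-/- after 5-FU, Cdkn2d then came second at 14.5 ± 2.18, overlapping with Cdkn1a at 13.9 ± 0.967, and Cdkn2c came sixth at 10.1 ± 1.5.

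**Figure D1:**
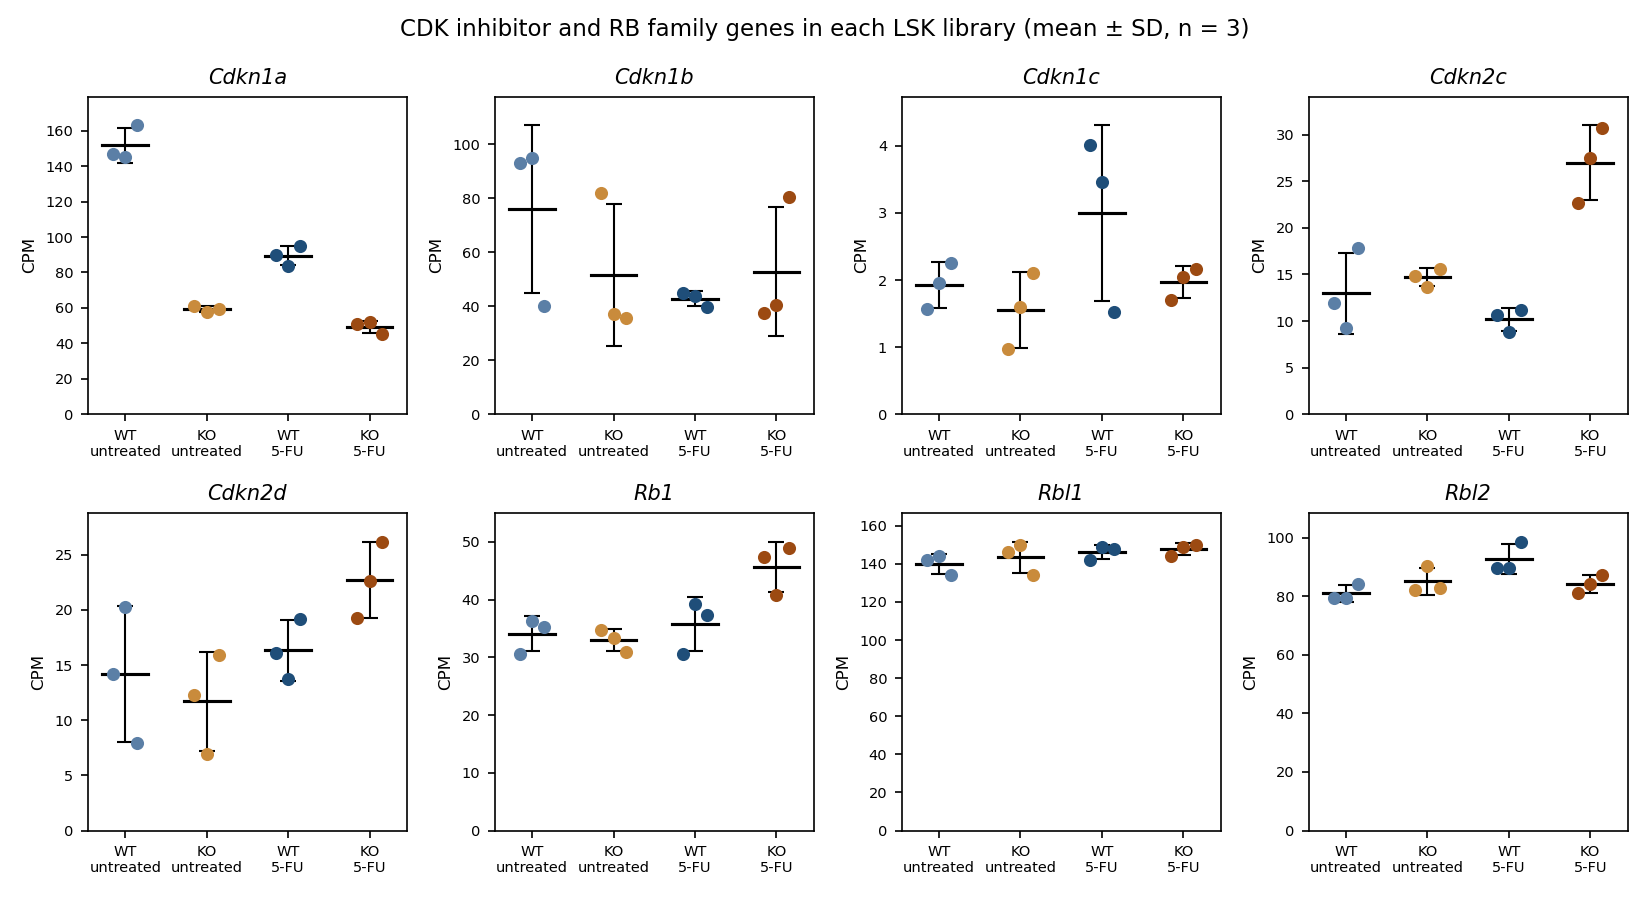
CPM of the 8 genes that were measured above the filter, in each of the 12 LSK libraries (points), with the mean and SD of each group of 3 (line and bar); WT is wild type, KO is Tespa1-/-, and each panel has its own linear axis from 0. Cdkn1a is highest in untreated wild type (145 to 163 CPM), Cdkn2c is highest in Tespa1-/- after 5-FU (22.7 to 30.7 CPM), and Rbl1 stays between 134 and 150 CPM throughout.

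Start regions are shown for Cdkn1a and Cdkn2c, the genes called between the genotypes, and for Rbl1, which varied little but holds a pair of the E2F-type letters through which the pathway is known to act. RefSeq windows of 300 bases (250 before a transcript start, 50 after it; GRCm38.p6) were found for 8 of the 10 genes (not for Cdkn1c and Rb1), 11 windows in all. Both starts of Cdkn1a are given, then the Cdkn2c start that holds GC boxes, then Rbl1, each on its gene's own strand. Capitals mark motif matches on either strand.
Cdkn1a, first start (chr17:29090729-29091028, plus strand): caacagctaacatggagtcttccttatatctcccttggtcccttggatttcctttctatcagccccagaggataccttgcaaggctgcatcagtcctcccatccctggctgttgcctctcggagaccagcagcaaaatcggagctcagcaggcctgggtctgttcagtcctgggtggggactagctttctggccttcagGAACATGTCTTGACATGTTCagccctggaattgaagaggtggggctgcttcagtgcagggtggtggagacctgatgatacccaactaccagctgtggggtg
Cdkn1a, second start (chr17:29093519-29093818, plus strand): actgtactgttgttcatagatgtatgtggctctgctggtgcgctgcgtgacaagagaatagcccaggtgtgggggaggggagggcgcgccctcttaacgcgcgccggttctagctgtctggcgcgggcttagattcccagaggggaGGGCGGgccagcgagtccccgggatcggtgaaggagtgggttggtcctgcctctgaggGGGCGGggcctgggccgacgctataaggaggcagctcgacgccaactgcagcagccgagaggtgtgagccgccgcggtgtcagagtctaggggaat
Cdkn2c (chr4:109666707-109667006, minus strand): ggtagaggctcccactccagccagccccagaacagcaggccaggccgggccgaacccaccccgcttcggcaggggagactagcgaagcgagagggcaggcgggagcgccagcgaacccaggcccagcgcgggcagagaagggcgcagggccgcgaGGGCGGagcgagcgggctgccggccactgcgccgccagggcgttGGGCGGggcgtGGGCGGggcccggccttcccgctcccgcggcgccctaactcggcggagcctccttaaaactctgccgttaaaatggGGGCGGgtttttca
Rbl1 (chr2:157204485-157204784, minus strand): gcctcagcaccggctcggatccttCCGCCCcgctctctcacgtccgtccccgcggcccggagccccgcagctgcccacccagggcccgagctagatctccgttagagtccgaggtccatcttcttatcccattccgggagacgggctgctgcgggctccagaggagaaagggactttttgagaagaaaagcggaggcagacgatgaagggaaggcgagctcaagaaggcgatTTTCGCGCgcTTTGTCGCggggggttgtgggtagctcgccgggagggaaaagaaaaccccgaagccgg

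The capitals in the first window are a p53 response element of 20 letters, a pair of adjacent p53 motifs with both cores intact and at most 1 other base off, at bases -51 to -32 from the start. Such a pair was in 18 of 32851 windows of all genes (0.0548%) and in 1 of the 11 windows here. Its form was set after these letters had been seen. The GC box GGGCGG, the letters bound by Sp1-type factors, was in 35.7% of all windows and in 9 of the 11, with at least 1 for each of the 8 genes. In the Cdkn2c window it occurs 4 times. The E2F-type letters TTTNNCGC were in 5.17% of all windows and in 3 of the 11, both Cdkn2a windows and Rbl1, where the 2 matches lie at bases -18 to -11 and -8 to -1. The CHR letters TTTGAA, to which DREAM is known to bind, were in 17.9% of all windows and in 2 of the 11, those of Cdkn2b and Rbl2. No match overlapped another one in these windows. A match of letters is not a bound site.

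Untreated LSKs were compared to ask whether loss of Tespa1 alone moves the cell cycle brakes. Of the 8 genes tested, 1 was called by edgeR's quasi-likelihood test at a Benjamini-Hochberg adjusted p below 0.05 over 17055 genes, Cdkn1a, where 5.23% of all genes tested were called. Cdkn1a encodes p21, the p53-induced inhibitor of cyclin-CDK complexes, and lies on chr17:29090979-29100722 (GRCm38, plus strand). It was counted at 147, 145 and 163 CPM in the wild-type libraries and at 61, 57.9 and 59.2 CPM in the Tespa1-/- libraries. Every mutant library was far below every wild-type library. The level in Tespa1-/- was 2.53-fold lower (log2 fold change -1.34, SE 0.07, adjusted p = 3.3e-05). It was also the 1 gene of the 8 whose groups did not overlap, which held for 25.5% of all genes tested. The median fitted log2 difference of the 8 was -0.15, against 0.01 over all genes tested. In these libraries the erythroid markers summed to 22.5 to 30.7 CPM in wild type and 55.5 to 65.2 in Tespa1-/-, with 2 of 10 called higher, and the B cell markers to 58.2 to 66.8 and 34 to 41.3, with 3 of 6 called lower. The neutrophil markers summed to 19.6 to 33.5 and 34.9 to 36.8 CPM, with none called. Most of that sum was Itgam (means of 26.8 and 30.7 CPM), and no other neutrophil marker had a mean above 1.58 CPM here. The 5 tested all lay above 0 (median log2 difference 1.69). Macrophage markers summed to 77 to 89.6 and 104 to 108 CPM, with 1 of the 5 tested called higher, Csf1r. Of the 9 LSK markers, 3 (Flt3, Mecom and Cd34) were called lower. The part of these markers in the Cdkn1a result was not tested.

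At day 9 after 5-FU the same question was asked in marrow under stress. Here 2 of the 8 were called (13.1% of 17239 genes tested), with Cdkn1a lower and Cdkn2c higher in Tespa1-/-. Cdkn1a stood at 89.7, 83.9 and 94.8 CPM in wild type and at 50.7, 52 and 45.4 CPM in Tespa1-/-. The groups were again far apart, 1.81-fold (log2 fold change -0.86, SE 0.09, adjusted p = 0.000274). Cdkn2c, which encodes the CDK4 and CDK6 inhibitor p18 and lies on chr4:109660876-109667189 (minus strand), stood at 10.6, 8.81 and 11.2 CPM in wild type and at 22.7, 27.5 and 30.7 CPM in Tespa1-/-. The lowest mutant library thus held more than the highest wild-type library, and the level was 2.64-fold higher (log2 fold change 1.40, SE 0.17, adjusted p = 0.000746). The groups did not overlap for 5 of the 8 genes, against 33.1% of all genes tested, the others being Cdkn2d and Rb1 (higher) and Rbl2 (lower), none of which was called. The median difference of the 8 was 0.16 (log2), against -0.01 over all genes. The mutant libraries in this comparison are those with the neutrophil markers at 1112 to 1118 CPM against 31.9 to 44.3 in wild type and the erythroid markers at 445 to 460 against 54.5 to 70. 10 of the 11 neutrophil and 10 of the 10 erythroid markers were called higher, and 6 of the 9 LSK markers lower. Their part in the results on Cdkn1a and Cdkn2c was not tested.

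The response to 5-FU was then compared within each genotype, with libraries that the genotype comparisons also used. In wild type, 1 of the 8 genes was called (7.95% of 17002 genes tested), Cdkn1a, which fell 1.68-fold from 152 ± 9.55 to 89.5 ± 5.44 CPM (log2 fold change -0.74, SE 0.08, adjusted p = 0.000631). The groups did not overlap for Cdkn1a and for Rbl2 (28.7% of all genes tested). Between the same libraries the B cell markers rose from 58.2 to 66.8 CPM to 248 to 255 in sum, with 5 of 6 called higher, the erythroid markers went from 22.5 to 30.7 CPM to 54.5 to 70, with 4 of 10 called higher, and the LSK markers from 1585 to 1638 CPM to 1292 to 1334. Of these 9, 2 were called lower (Flt3 and Cd34) and 2 higher, among them Mecom (log2 fold change 0.98, SE 0.11, adjusted p = 0.000762), and their median log2 difference was 0.54. The part of these markers in the fall of Cdkn1a was not tested. In Tespa1-/-, 4 of the 8 were called (19.4% of 17228 genes tested), Cdkn1a lower and Cdkn2c, Cdkn2d and Rb1 higher, and these 4 were the genes without overlap (38.6% of all genes tested). Cdkn1a went from 59.4 ± 1.54 to 49.4 ± 3.48 CPM, a 1.21-fold lower level (log2 fold change -0.27, SE 0.08, adjusted p = 0.0404), and of the 6 fits that left out 1 library 1 kept this call, the one without replicate 2 of Tespa1-/- after 5-FU. The Cdkn2c level was 1.83-fold higher (log2 fold change 0.87, SE 0.14, adjusted p = 0.00289), against -0.33 (SE 0.26, adjusted p = 0.527) in wild type. Between the same libraries the neutrophil markers went from 34.9 to 36.8 CPM in sum to 1112 to 1118, the erythroid markers from 55.5 to 65.2 to 445 to 460, and the B cell markers from 34 to 41.3 to 261 to 291. The LSK markers went from 1315 to 1356 CPM to 777 to 840, with 3 of 9 called higher and 3 lower. The part of these markers in the 4 calls was not tested. Over the 8 genes the median difference was 0.08 in wild type and 0.19 in Tespa1-/- (log2), against 0.01 and -0.01 over all genes.

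The difference between the genotype effects was tested directly as the interaction of genotype and 5-FU over the 12 libraries, and 2 of the 8 genes were called (5.01% of 18696 genes tested). For Cdkn1a the gap between the genotypes was smaller after 5-FU than without it, by 0.49 (log2, SE 0.11, adjusted p = 0.02). For Cdkn2c the genotype effect was 1.21 more positive after 5-FU (log2, SE 0.30, adjusted p = 0.0358), from 0.19 (SE 0.23, adjusted p = 0.729) in untreated LSKs to 1.40. Leaving out 1 library at a time kept the Cdkn1a interaction in 7 and the Cdkn2c interaction in 3 of 12 fits, and without replicate 2 or 3 of untreated Tespa1-/-, replicate 2 of wild type after 5-FU or replicate 2 of Tespa1-/- after 5-FU neither was called. For the other 6 the adjusted p was between 0.218 and 0.921. The median of the 8 was 0.44 (log2), against -0.02 over all genes. The interaction was also called for cell type markers, higher for 5 of 11 neutrophil, 5 of 10 erythroid and 3 of 6 B cell markers and lower for 3 of 9 LSK markers. The part of these markers in the 2 calls was not tested.

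**Figure D2:**
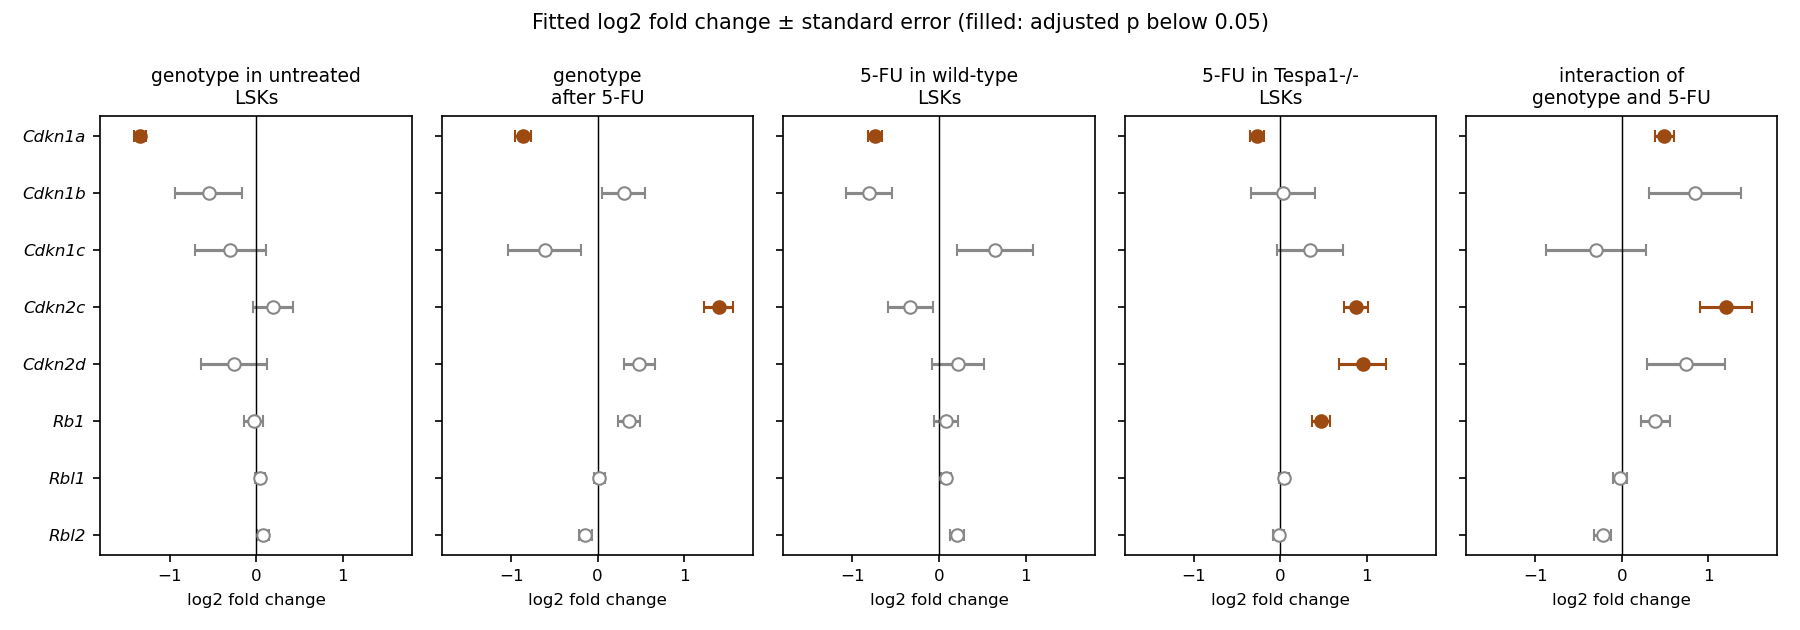
Fitted log2 fold change of each gene in the 5 comparisons (points, bars are the standard error; filled points have an adjusted p below 0.05). Cdkn1a lies below 0 in the first 4 panels, from -1.34 to -0.27, Cdkn2c reaches 1.40 between the genotypes after 5-FU, and Rbl1 lies within 0.08 of 0 in each panel.

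Genes were ranked by how closely they followed Cdkn1a over the libraries. Over 14934 genes and the 12 libraries, the smallest root-mean-square differences of centred log2(CPM + 0.5) values from it were those of Stk17b (0.136), Fosl2 (0.14) and Sik1 (0.143). Stk17b encodes a serine/threonine kinase, Fosl2 a subunit of the AP-1 factor and Sik1 a salt-inducible kinase. Fosl2 stood at a mean of 349 CPM in untreated wild type, 137 in untreated Tespa1-/-, 179 in wild type after 5-FU and 104 in Tespa1-/- after 5-FU. Its groups were ordered as those of Cdkn1a, which follows from how it was picked. 10 early-response genes, which cells switch on within minutes of a stimulus, were therefore added after the values of Cdkn1a had been seen. Their summed level was 9342 to 9775 CPM in untreated wild type, 6543 to 6660 in untreated Tespa1-/-, 6100 to 6156 in wild type after 5-FU and 4910 to 5069 in Tespa1-/- after 5-FU. This sum was higher in untreated Tespa1-/- than in wild type after 5-FU, whereas Cdkn1a was lower (means of 59.4 and 89.5 CPM). All 10 were called lower in Tespa1-/- without treatment (all genes tested 5.23%), after 5-FU in wild type (7.95%) and after 5-FU in Tespa1-/- (19.4%), and 8 of 10 between the genotypes after 5-FU (13.1%). Nr4a1, an orphan nuclear receptor, stood at 912 CPM in untreated wild type and 364 in untreated Tespa1-/- (log2 fold change -1.31, SE 0.05, adjusted p = 6.7e-06). Such genes also respond to the handling of cells, and whether Cdkn1a moved with it was not tested.

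**Figure D3:**
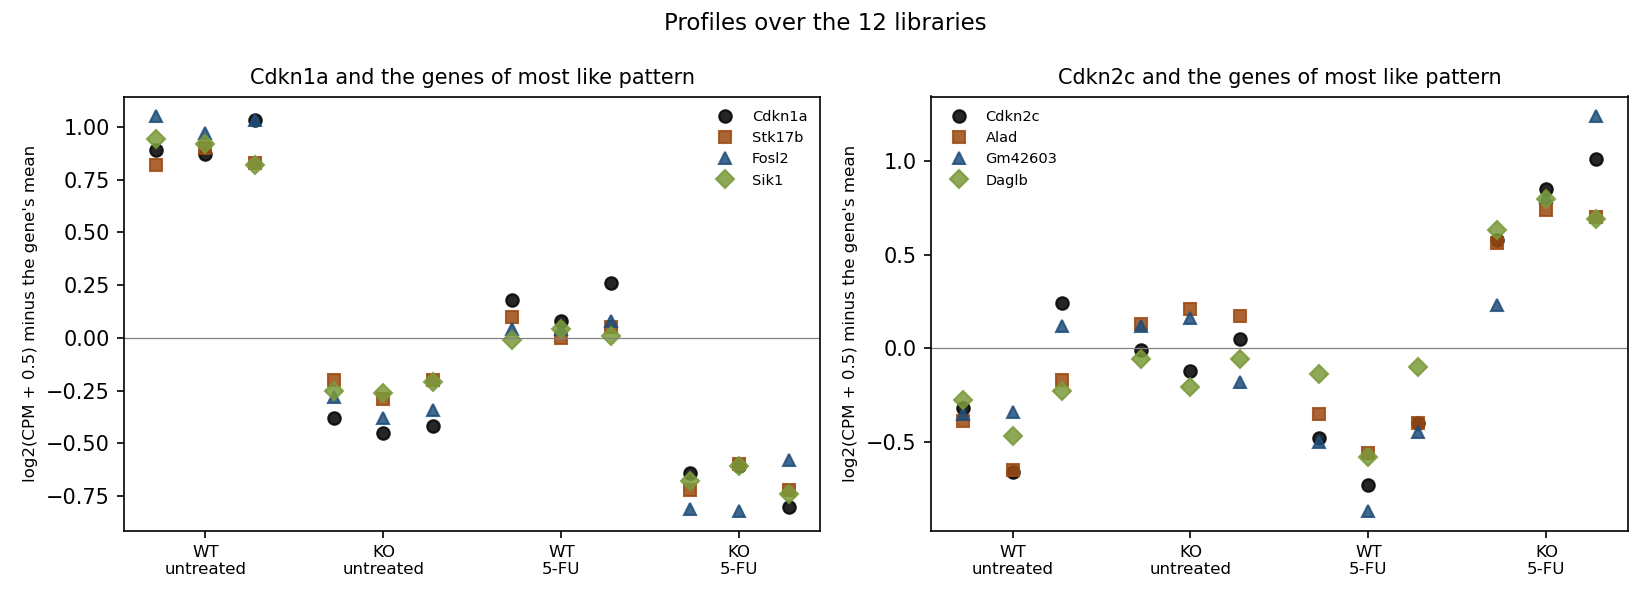
Centred log2(CPM + 0.5) of Cdkn1a (left) and Cdkn2c (right) and of the 3 genes of most like pattern for each, in the 12 libraries by group (WT is wild type, KO is Tespa1-/-; 0 is the gene's own mean). The Cdkn1a set is above its mean in untreated wild type and lowest in Tespa1-/- after 5-FU, and the Cdkn2c set is highest in Tespa1-/- after 5-FU.

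Other p53 target genes were counted beside Cdkn1a. Of 12 targets tested, 1 was called lower and none higher in untreated Tespa1-/- (5.23% of all genes called; median log2 difference -0.13, all genes 0.01), and 1 lower and 2 higher after 5-FU (13.1% of all genes called; median 0.12, all genes -0.01). The one called lower in both was Plk2, a polo-like kinase, at 154 ± 6.5 CPM in untreated wild type and 46.1 ± 1.51 in untreated Tespa1-/- (log2 fold change -1.73, SE 0.07, adjusted p = 6.7e-06). After 5-FU its log2 fold change was -0.96 (SE 0.10, adjusted p = 0.000313). The higher ones after 5-FU were the cell death genes Pmaip1 (0.61, SE 0.15, adjusted p = 0.0257) and Bax (0.67, SE 0.18, adjusted p = 0.0404). Neither was called without replicate 1 or 2 of wild type after 5-FU or without replicate 1 or 3 of Tespa1-/- after 5-FU. In the same libraries neutrophil markers summed to 1112 to 1118 CPM in Tespa1-/- against 31.9 to 44.3 in wild type, and erythroid markers to 445 to 460 against 54.5 to 70. Their part in the changes of p53 targets after 5-FU was not tested.

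Cdkn1b, the gene of the inhibitor p27, on chr6:134920401-134925513 (plus strand), was spread within its groups. It stood at 92.8, 94.8 and 40.2 CPM in untreated wild type and at 81.8, 37 and 35.5 CPM in untreated Tespa1-/-. After 5-FU it stood at 45, 43.6 and 39.8 CPM in wild type and at 37.4, 40.6 and 80.4 CPM in Tespa1-/-. Thus 4 libraries from 3 groups lay between 80.4 and 94.8 CPM and the other 8 between 35.5 and 45. No comparison called it, with log2 differences of -0.55 (SE 0.39, adjusted p = 0.519) between the untreated genotypes, 0.30 (SE 0.25, adjusted p = 0.512) between the genotypes after 5-FU, -0.81 (SE 0.27, adjusted p = 0.11) for 5-FU in wild type and 0.03 (SE 0.37, adjusted p = 0.968) for 5-FU in Tespa1-/-. Without the third untreated wild-type library the fall after 5-FU in wild type was -1.11 and was called.

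Cdkn1c, the imprinted p57 gene on chr7:143458339-143461050 (minus strand), was measured near 2 CPM. Its libraries held 1.57, 1.96 and 2.26 CPM in untreated wild type and 0.966, 1.6 and 2.1 in untreated Tespa1-/-. After 5-FU they held 4.01, 3.46 and 1.52 CPM in wild type and 1.71, 2.04 and 2.16 in Tespa1-/-. The groups overlapped in each of the 4 comparisons, and the log2 differences of -0.30 (SE 0.41), -0.61 (SE 0.42), 0.65 (SE 0.44) and 0.34 (SE 0.38), in the order of the comparisons above, had adjusted p-values of 0.764, 0.408, 0.459 and 0.599. Around it, Kcnq1ot1, the long non-coding RNA that silences the domain on the paternal chromosome, was higher in untreated Tespa1-/- (log2 fold change 0.34, SE 0.04, adjusted p = 0.00275) and lower after 5-FU (-0.21, SE 0.05, adjusted p = 0.0195), with an interaction of -0.55 (adjusted p = 0.000156). Its call after 5-FU was lost without replicate 1 or 2 of either genotype. Of the 8 genes of the domain tested in untreated LSKs, 1 was called higher and 1 lower (5.23% of all genes called; median 0.05, all genes 0.01), the lower one, Cd81, being lost when any 1 library was left out. Of the 8 tested after 5-FU, which are not all the same genes, none was called higher and 1 lower (13.1% of all genes called; median 0.03, all genes -0.01).

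**Figure D4:**
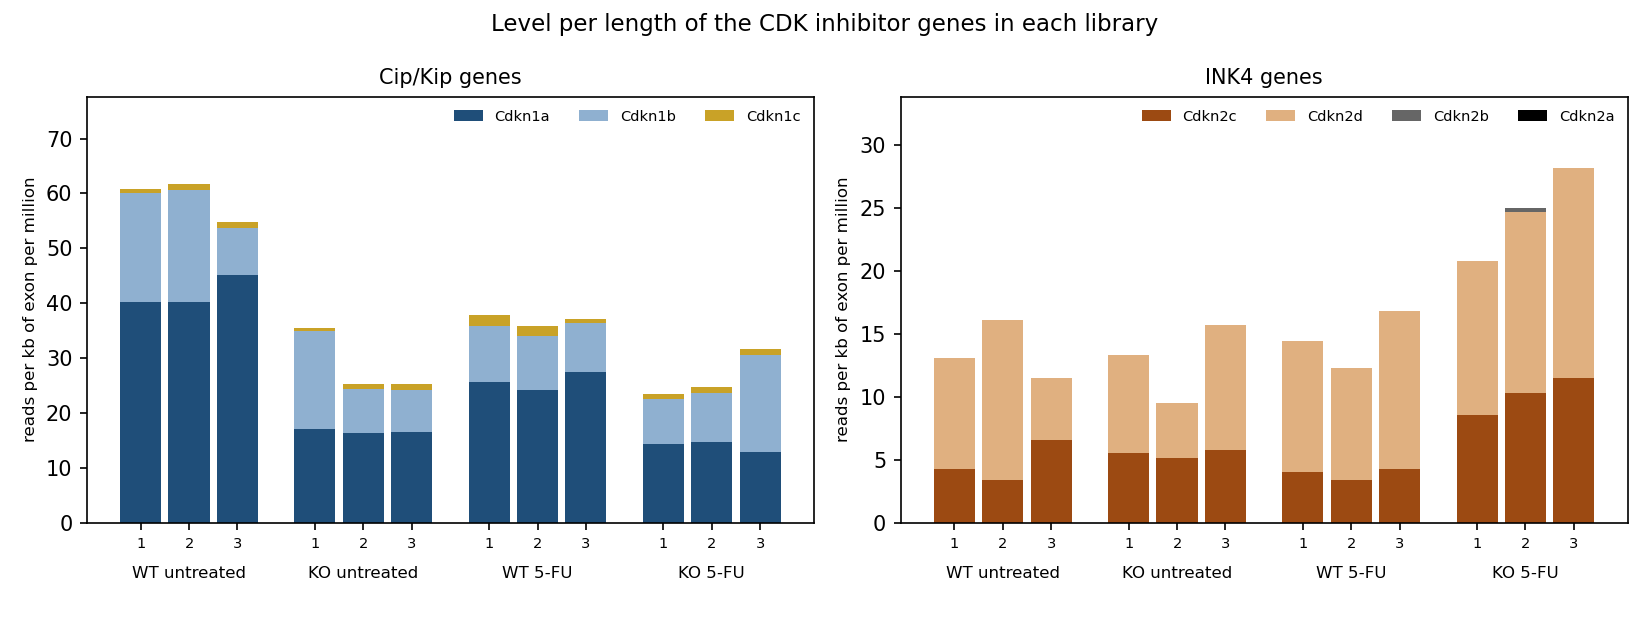
Reads per kilobase of exon (GENCODE M21), scaled to library size, of the 3 Cip/Kip genes (left) and the 4 INK4 genes (right), stacked in each of the 12 libraries (bars from 0, numbered by replicate; WT is wild type, KO is Tespa1-/-). The Cip/Kip stack is tallest in untreated wild type, mainly through Cdkn1a, and the INK4 stack is tallest in Tespa1-/- after 5-FU.

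Summed per length, the 3 Cip/Kip genes were highest in untreated wild type and the 4 INK4 genes in Tespa1-/- after 5-FU. By exon length, the Cip/Kip sum was 59.1 ± 3.69 in untreated wild type, 28.6 ± 5.93 in untreated Tespa1-/-, 36.9 ± 1.03 in wild type after 5-FU and 26.5 ± 4.45 in Tespa1-/- after 5-FU (reads per kilobase scaled to library size, n = 3). The INK4 sum was 13.5 ± 2.35, 12.8 ± 3.13, 14.5 ± 2.27 and 24.6 ± 3.68 in the same order. Cdkn1a made up 71.2 ± 9.52% of the Cip/Kip sum in untreated wild type and 53.8 ± 11.5% in Tespa1-/- after 5-FU, or 82.7 ± 6.54% and 69.2 ± 10.4% with the deposited FPKM. These sums are descriptions, given without a test.

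In the INK4 family, Cdkn2c and Cdkn2d carried nearly all of the reads. Cdkn2c stood at 11.9, 9.3 and 17.8 CPM in untreated wild type and at 14.8, 13.7 and 15.6 CPM in untreated Tespa1-/-, which overlapped. Its values after 5-FU are given above. The genes of most like pattern to it were Alad, an enzyme of heme synthesis (0.198), the unannotated transcript Gm42603 (0.198) and Daglb, a diacylglycerol lipase (0.226), all at a larger distance than the neighbours of Cdkn1a. Gm42603 was near the cut of 1 CPM, at group means of 0.661 to 2.6 CPM. Alad stood at a mean of 22.1 CPM in wild type and 48.1 CPM in Tespa1-/- after 5-FU.

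Cdkn2d encodes p19 (INK4d), the other small inhibitor of CDK4 and CDK6, and lies on chr9:21288410-21291407 (minus strand). It stood at 14.2, 20.3 and 7.96 CPM in untreated wild type and at 12.3, 6.92 and 15.9 CPM in untreated Tespa1-/-, with a log2 difference of -0.26 (SE 0.38, adjusted p = 0.775). After 5-FU it stood at 16.1, 13.7 and 19.2 CPM in wild type and at 19.3, 22.6 and 26.2 CPM in Tespa1-/-. The lowest mutant library was barely above the highest wild-type one, and that difference was not called (log2 0.48, SE 0.18, adjusted p = 0.115). From untreated to 5-FU, Tespa1-/- LSKs were 1.93-fold higher (log2 fold change 0.95, SE 0.27, adjusted p = 0.0382), and of the 6 fits without 1 library 1 kept this call, the one without replicate 3 of untreated Tespa1-/-.

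Cdkn2a, whose locus encodes p16 and p19ARF, and Cdkn2b, which encodes p15, lie next to each other on chr4:89274471-89294653 and chr4:89306289-89311032 (both minus strand). Cdkn2a had 0 counts in all 12 libraries, which allows up to 0.106 to 0.136 CPM by a limit of 3 counts for each library. Cdkn2b had 0 counts in 11 libraries and 9 counts (0.347 CPM) in the second Tespa1-/- library after 5-FU. Neither entered a test. These limits cover counting error only.

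Of the pocket proteins, Rbl1 (p107) on chr2:157145893-157204534 (minus strand) varied little between the groups and was called in none of the comparisons. It stood at 142, 144 and 134 CPM in untreated wild type and at 146, 150 and 134 CPM in untreated Tespa1-/-. After 5-FU it stood at 142, 149 and 148 CPM in wild type and at 144, 149 and 150 CPM in Tespa1-/-. Its log2 differences in the 4 comparisons were 0.04, 0.02, 0.08 and 0.04 (SE 0.06 in each), with adjusted p-values of 0.766, 0.89, 0.543 and 0.673.

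Rbl2 (p130), the pocket protein of resting cells, lies on chr8:91070057-91123844 (plus strand). It stood at 79.4, 79.3 and 84.3 CPM in untreated wild type and at 82.1, 90.4 and 82.7 CPM in untreated Tespa1-/-. After 5-FU it stood at 89.7, 89.7 and 98.6 CPM in wild type and at 80.9, 84 and 87.1 CPM in Tespa1-/-. The 3 wild-type libraries after 5-FU were above all 3 untreated ones (log2 difference 0.21, SE 0.08, adjusted p = 0.161) and above the 3 Tespa1-/- ones (log2 difference of the mutants -0.14, SE 0.07, adjusted p = 0.251), and neither difference was called. The ratio of Rbl1 to Rbl2 by exon length was between 1.99 ± 0.0989 and 2.22 ± 0.0433 in the 4 groups.

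Rb1, the gene of RB itself, on chr14:73183673-73325822 (minus strand), was called in 1 comparison. It stood at 30.6, 36.3 and 35.3 CPM in untreated wild type, and at 34.7, 33.4 and 30.9 CPM in untreated Tespa1-/- (log2 difference -0.03, SE 0.11, adjusted p = 0.91). After 5-FU it stood at 30.5, 39.3 and 37.4 CPM in wild type and at 47.3, 40.8 and 49 CPM in Tespa1-/- (log2 difference 0.36, SE 0.13, adjusted p = 0.103). Within Tespa1-/- the rise after 5-FU was 1.38-fold (log2 fold change 0.47, SE 0.10, adjusted p = 0.0105). Rb1 shares 488 exon bases with Rcbtb2 and 408 with Lpar6 on the opposite strand, and Rbl2 shares 693 with Aktip. Whether the counts used strand is not given in the sources used here. In the same comparison the log2 difference was -0.30 for Rcbtb2 (SE 0.11, adjusted p = 0.0821) and -0.08 for Lpar6 (SE 0.16, adjusted p = 0.788), neither called. The part of shared bases in the Rb1 count was not tested.

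Genes of the wider pathway were taken from lists by role, to be read against the 5.23% of all genes called between the untreated genotypes and the 13.1% called after 5-FU. Of 16 mitotic genes that DREAM represses, none was called in untreated LSKs (median log2 difference -0.01, all genes 0.01) and 15 were called higher in Tespa1-/- after 5-FU (14 to 15 over the alternatives; median 0.60, all genes -0.01). The proliferation marker Mki67 stood at 1425 CPM in wild type and 2060 in Tespa1-/- after 5-FU (log2 fold change 0.53, SE 0.02, adjusted p = 2.2e-06), Top2a, a topoisomerase, rose by 0.44 (SE 0.04, adjusted p = 0.0001), and Tpx2, a spindle factor, by 0.61 (SE 0.06, adjusted p = 0.000146). The difference between treatments was called for 12 of the 16 as an interaction, all higher (8 to 12 over the alternatives; 5.01% of all genes called). These libraries are the ones with neutrophil and erythroid markers, whose part was not tested. In wild type, 5-FU left 1 of the 16 called, Top2a, at -0.23 (SE 0.04, adjusted p = 0.00757), where 7.95% of all genes were called.

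Of 18 E2F-driven replication genes, none was called in untreated LSKs (median 0.03) and 6 were called higher after 5-FU (4 to 6 over the alternatives; median 0.15). Those of lowest adjusted p were Rrm2 (0.79, SE 0.06, adjusted p = 7.7e-05) and Rrm1 (0.37, SE 0.05, adjusted p = 0.0012), the subunits of ribonucleotide reductase, and Chaf1a, a chromatin assembly factor (0.46, SE 0.06, adjusted p = 0.000798). Among 10 E2F and DP factors, 0 and 3 were called (medians 0.05 and 0.20), with E2f2, a factor that activates E2F genes, at 38.6 CPM in wild type and 71.5 in Tespa1-/- after 5-FU (log2 fold change 0.89, SE 0.11, adjusted p = 0.000719). Of the 8 MuvB genes and partners 0 and 1 were called, Mybl2 being higher after 5-FU (0.70, SE 0.12, adjusted p = 0.00582). The 10 G1 cyclins and kinases split. Ccnd2, the D-type cyclin whose partners Cdkn2c binds, fell by 0.20 (SE 0.04, adjusted p = 0.0279) in untreated LSKs and by 0.50 (SE 0.05, adjusted p = 0.000158) after 5-FU. The untreated call was lost without replicate 3 of wild type or any 1 Tespa1-/- library. Cdk6 was at -0.23 (SE 0.03, adjusted p = 0.0016) and Ccna2, the cyclin of S phase, at 0.76 (SE 0.08, adjusted p = 0.000402) after 5-FU, and the list had 3 called higher and 3 lower (median -0.08, all genes -0.01). The part of the neutrophil markers (1112 to 1118 CPM against 31.9 to 44.3) and erythroid markers (445 to 460 against 54.5 to 70) of the same libraries in the changes after 5-FU was not tested.

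Among 15 regulators of CDK inhibitor levels, Foxo1, a factor known to drive Cdkn1b, was at -0.75 (SE 0.14, adjusted p = 0.0199) in untreated Tespa1-/-, and Gfi1, a repressor in stem cells, at 1.27 (SE 0.21, adjusted p = 0.00411) after 5-FU, with no other called in these comparisons (medians -0.08 and 0.04). The Foxo1 call was lost without replicate 3 of untreated wild type or any 1 untreated Tespa1-/- library. Gfi1, which is also known in the neutrophil lineage, was higher in the libraries whose neutrophil markers summed to 1112 to 1118 CPM against 31.9 to 44.3, and their part was not tested. Of 9 genes listed as other brakes on CDKs or on growth, 3 were called lower in untreated Tespa1-/- (median -0.28, all genes 0.01). They were the antiproliferative genes Btg1 (-0.63, SE 0.06, adjusted p = 0.000597) and Btg2 (-0.59, SE 0.08, adjusted p = 0.0041) and Hexim1, the inhibitor of the transcription kinase CDK9 (-0.40, SE 0.08, adjusted p = 0.0251). The list had 2 called lower when any 1 untreated Tespa1-/- library was left out. The same 3 fell in wild type after 5-FU (7.95% of all genes called), by 0.41 (SE 0.07), 0.39 (SE 0.08) and 1.04 (SE 0.09), with libraries shared with that comparison and 2 to 4 of the list called over the alternatives. Between the genotypes after 5-FU, 1 of the 9 was called, Pkmyt1, an inhibitory kinase of CDK1, at 0.46 (SE 0.13, adjusted p = 0.0409), a call lost without TMM factors, without a filter and in 5 of the 6 fits that left out 1 library (each but replicate 2 of wild type).

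**Figure D5:**
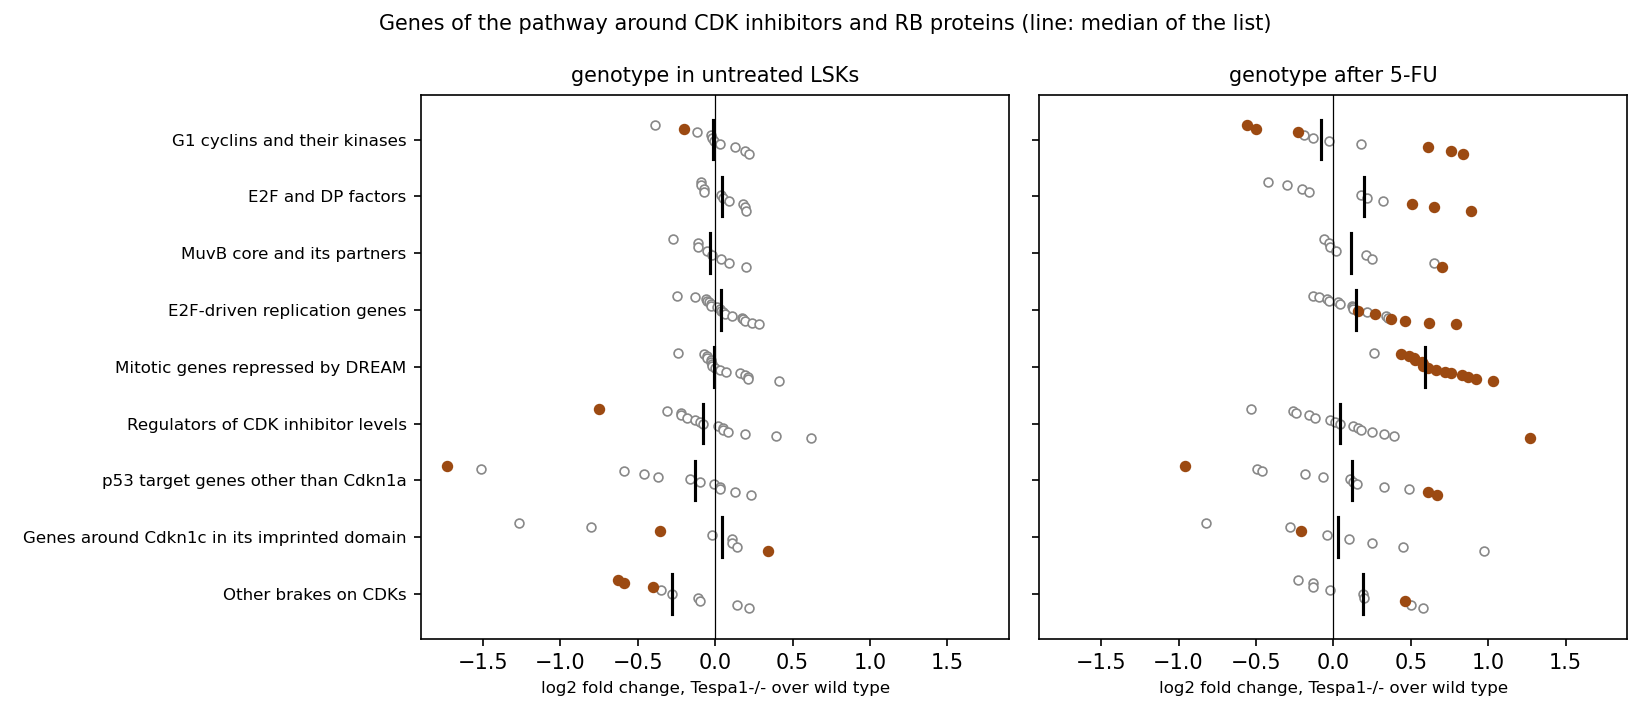
Fitted log2 fold change of Tespa1-/- over wild type for the genes of the 9 pathway lists, without treatment (left) and after 5-FU (right); each point is a gene, filled where the adjusted p is below 0.05, and the vertical line is the median of the list. The mitotic genes repressed by DREAM lie around 0 on the left (median -0.01) and 15 of 16 are filled on the right (median 0.60).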

How the data were processed

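The deposited table gives read counts and FPKM for each of 12 libraries of sorted LSKs. Per the labels' processing notes the authors used CASAVA 1.8, HISAT2, StringTie and edgeR on GRCm38. The counts deposited are whole and not normalized, and the FPKM deposited by the authors are scaled to gene length and library size. How they counted strand, and the length behind FPKM, are not given in the sources used here. Members and gene lists were chosen with earlier results of these data known.

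Counts were tested with edgeR 4.0.16 in R 4.3.3 (quasi-likelihood test, filterByExpr with a minimum count of 10, TMM, Benjamini-Hochberg adjustment over all genes tested, threshold 0.05), each comparison on its 6 libraries and the interaction on 12. The fit was tested on simulated data. DESeq2 1.42.0 and other scalings, filters, sample sets and a replicate block were alternatives. The replicate numbers did not pair the libraries (12 pairs, correlations of deviations -0.05 to 0.04). Levels are CPM with TMM factors over 12 libraries. All 10 members are named, and from each list up to 3 called genes of lowest adjusted p. The 3 genes of most like pattern were taken for the 2 members of widest range in group means, among genes of at least 1 CPM. Depth was 22118154 to 28275079 counts, so that 3 counts correspond to 0.106 to 0.136 CPM. The exact permutation test of 3 against 3 cannot go below p = 0.1 and was not used. Promoter windows are RefSeq's (GRCm38.p6). Tables were handled with Python 3.11.15 and pandas 2.3.3.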

Additional observations from a re-analysis of the deposited data

Results flagged for a closer look

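The genotype effect on Cdkn1a and on Cdkn2c differed between untreated LSKs and LSKs at day 9 after 5-FU in the interaction test. The effect after 5-FU minus the effect without it was 0.49 for Cdkn1a (log2, adjusted p = 0.02, edgeR) and 1.21 for Cdkn2c (log2, adjusted p = 0.0358, edgeR). Cdkn1a was lower in Tespa1-/- in both treatments, by a smaller log2 difference after 5-FU (-0.86 against -1.34), and the difference for Cdkn2c was 0.19 without treatment and 1.40 after 5-FU. Leaving out 1 library at a time kept the Cdkn1a interaction in 7 of 12 fits and that of Cdkn2c in 3 of 12. The interaction was also called higher for 5 of 11 neutrophil and 5 of 10 erythroid markers (5.01% of all genes called), whose part was not tested. With 3 libraries in a group, no group was tested for a library far from the others.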

How the results depend on the processing

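The calls of Cdkn1a in the 2 genotype comparisons and for 5-FU in wild type, and of Cdkn2c between the genotypes after 5-FU, were kept in all 13 alternative fits of each. The number of the 8 genes called stayed at 1 without treatment and at 2 after 5-FU in each of the alternatives. For 5-FU in wild type it was 1 to 2 over the fits that left out 1 library and 2 by an unadjusted p below 0.05 with a fold above 1.5. For 5-FU in Tespa1-/- it was 4, 2 to 3 without 1 library and 2 by the other call rule. For the interaction it was 2, 0 to 2 without 1 library and 1 by the other call rule. The differences that turned sign were uncalled ones. Without TMM factors Rbl1 after 5-FU was at -0.01. Over the fits without 1 library the log2 difference was -0.55 to 0.09 for Cdkn2d and -0.11 to 0.02 for Rb1 between the untreated genotypes, 0 to 0.04 for Rbl1 and -0.13 to 0.50 for Cdkn1b between the genotypes after 5-FU, -0.06 to 0.58 for Cdkn2d with 5-FU in wild type, -0.40 to 0.54 for Cdkn1b, -0.01 to 0.07 for Rbl1 and -0.05 to 0.02 for Rbl2 with 5-FU in Tespa1-/-, and -0.07 to 0.01 for Rbl1 in the interaction. The causes were not tested.

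With the replicate block the genes called went from 892 to 454 (genotype, untreated), from 2261 to 1706 (genotype after 5-FU), from 1352 to 956 (5-FU in wild type), from 3336 to 2833 (5-FU in Tespa1-/-) and from 936 to 742 (interaction). The numbers do not pair the libraries, each library correlating best with its own number in 8 of 24 looks, and the fall of Cdkn1a with 5-FU in Tespa1-/- was not called with the block or without a filter, nor was the rise of Cdkn2d in the fit of all 12 libraries. DESeq2 called 1427 genes for genotype in untreated LSKs, 2062 for 5-FU in wild type and 1534 for the interaction, and the fit of all 12 libraries called 2113 for 5-FU in wild type. Leaving out 1 library called 338 to 808, 783 to 1102 and 573 to 862 genes for genotype in untreated LSKs, 5-FU in wild type and the interaction. Without a filter on low counts the median of all genes moved to 0.22 for genotype in untreated LSKs, -0.38 for 5-FU in Tespa1-/- and -0.39 for the interaction. The replicate block left the untreated calls of Ccnd2, Foxo1 and Cd81 and the call of Pkmyt1 after 5-FU uncalled, and 2 of the 9 other brakes called lower in untreated Tespa1-/- in place of 3. Cdkn1c had 22 to 103 counts in a library, and the part of depth in its results and in those of the INK4 genes was not tested.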

Other observations

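Cdkn1b split the libraries within 3 of the 4 groups, 4 at 80.4 to 94.8 CPM (2 of untreated wild type, 1 of untreated Tespa1-/- and 1 of Tespa1-/- after 5-FU) and 8 at 35.5 to 45, with a gap of 1.79-fold between them. The spread of log2 CPM within its groups was 0.57, which ranked 81 of 7230 genes of at least 20 CPM, against a median of 0.12. The gene of most like pattern over the 12 libraries, Gm45797, was at a root-mean-square difference of 0.341 (log2), farther than the neighbours of Cdkn1a or Cdkn2c. This look at Cdkn1b was chosen after its values had been seen. Markers of T cells summed to 34.4 to 40.9 CPM in untreated wild type, 35.8 to 39.3 in untreated Tespa1-/-, 19.1 to 21.9 in wild type after 5-FU and 17 to 25.1 in Tespa1-/- after 5-FU. Most of the T cell sum was Lck, at means of 31.6, 30.8, 18.2 and 15 CPM in that order, followed by Cd4. Cd3e, Cd3d, Cd3g and Cd8a had means of at most 1.63 CPM, each highest in Tespa1-/- after 5-FU. Markers of macrophages summed to 77 to 89.6, 104 to 108, 62.8 to 65.5 and 67.7 to 90 CPM in the same order of groups. Most of the macrophage sum was Csf1r (means of 62.3, 85.8, 47.1 and 58.4 CPM) and Cd68. With 5-FU in Tespa1-/-, 1 of the 6 was called lower (Csf1r) and 2 higher (19.4% of all genes called). The higher ones, C1qa and C1qb, had means of at most 2.34 CPM.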
